A study of Homo sapiens with 40 samples.

Results

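The unfolded protein response in the endoplasmic reticulum (ER) was followed in HepaRG cells through 10 genes: HSPA5, HSP90B1, XBP1, DNAJB9, HERPUD1, SDF2L1, PDIA4, CALR, ERN1 and EDEM1. They were picked by name from 56568 gene names with a value, and all 10 were found. HepaRG is a human hepatic cell line whose differentiated cultures hold hepatocyte-like and biliary-like cells. RNA was sequenced from 40 libraries in 8 groups of 5. Besides the control group, which received the solvent, cells were exposed to PCB 126, a coplanar biphenyl that acts like dioxin on the aryl hydrocarbon receptor, at 1 of 3 concentrations (100 pM, 10 nM, 1 µM). Glyphosate, a herbicide, was also used at 3 concentrations: 10 µg/L, then 1 mg/L, then 0.1 g/L. A single group received Roundup, a commercial formulation of glyphosate, at a label concentration of 10 µg/L. Every group, the control included, was kept from day 8 to day 14 in medium with 2% fetal bovine serum and 1% DMSO. The same 5 control libraries serve the PCB 126 and the herbicide comparisons, which are therefore not independent. The labels do not say whether the 5 libraries of a group came from separate cultures, so p values measure only the spread between these libraries.

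When unfolded proteins accumulate in the ER, the chaperone HSPA5 (BiP) leaves the sensors of the ER membrane, among them the kinase and nuclease ERN1 (IRE1). ERN1 cuts a short piece out of the XBP1 mRNA, and the shifted reading frame gives an active transcription factor. XBP1 and the sensor ATF6 then raise the genes for chaperones, folding enzymes and the degradation of misfolded proteins. Liver cells secrete large amounts of albumin and other plasma proteins, so this pathway is constantly in use in them.

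The piece of XBP1 that ERN1 removes is shown because the deposited tables list transcripts with and without it. It is 26 bases long, coding, and lies in exon 4 of ENST00000216037 on the minus strand at chr22:28796128-28796153 (hg38, placed by the GENCODE annotation). It stands in capitals here between 20 coding bases on each side.
XBP1: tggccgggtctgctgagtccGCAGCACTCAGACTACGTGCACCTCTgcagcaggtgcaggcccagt
ENST00000216037, the most abundant of the listed transcripts that retain the piece, has 5 exons and codes for 261 amino acids. The transcript that lacks it, ENST00000344347, has 6 annotated exons and codes for 376.

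The promoters are shown because several of these genes carry the classical ER stress response element, which ties them to ATF6 and XBP1. Windows from 250 bases before to 50 bases after the RefSeq start were searched on both strands for ERSE (CCAAT, then 9 bases of any kind, then CCACG), ERSE-II (ATTGG, then 1 base of any kind, then CCACG) and the core of the XBP1 element UPRE (TGACG followed directly by TGG). All 10 genes had a window, and XBP1 and PDIA4 had 2. ERSE was found in the windows of 4 of the 10 genes (HSPA5, HSP90B1, XBP1 and CALR) and in 0.0769% of all 35116 windows. ERSE-II was found in 2 (HERPUD1 and SDF2L1) and in 0.0541% of all windows. The UPRE core was found for 0 of the 10 and in 0.729% of all windows. The plain CCAAT box, which both elements contain, was present for all 10 genes and in 34.6% of all windows. In the following stretches, from RefSeq (GRCh38.p14) and written in the direction of the gene, the element is in capitals. The HSPA5 element lies at chr9:125241391-125241409 (minus strand), that of XBP1 at chr22:28800603-28800621 (minus strand), and on the plus strand those of CALR, in reverse orientation, at chr19:12938384-12938402, HERPUD1 at chr16:56932025-56932035 and SDF2L1, in reverse orientation, at chr22:21642114-21642124.
HSPA5: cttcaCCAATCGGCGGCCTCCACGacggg
XBP1: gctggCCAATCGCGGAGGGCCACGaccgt
CALR: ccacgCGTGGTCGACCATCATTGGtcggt
HERPUD1: cgccgATTGGGCCACGttggg
SDF2L1: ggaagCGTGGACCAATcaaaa
HSP90B1 carried ERSE at 2 places, in opposite orientations. The windows of DNAJB9, PDIA4, ERN1 and EDEM1 held neither ERSE nor ERSE-II as spelled here, which says only that these letters are not in them.

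Expression was given as FPKM, fragments scaled to transcript length and to the mapped total of the library, and summed over the transcripts of a gene name. The study's alignment log put 9 of the 40 libraries above 30% multiply aligned read pairs, and left 2 libraries, control replicate 2 and PCB 126 100 pM replicate 4, without a name. These 9 libraries stood apart. Their 10 genes summed to between 453.8 and 730.8 FPKM, against 881.3 to 1311.5 in the 29 libraries under the limit, with no overlap. The median gene with an FPKM of at least 1 behaved alike, at 0.546 of its level in the other libraries (12416 genes). The 9 libraries were spread unevenly: 2 each at PCB 126 10 nM, 1 µM and Roundup, 1 each in the control group, at glyphosate 10 µg/L and 0.1 g/L, and 0 at PCB 126 100 pM and glyphosate 1 mg/L. Counts of genes past the threshold and medians over the 10 genes are therefore given with and without them. Other values, among them fold changes, cell markers, XBP1 forms and correlations, take in all libraries unless stated. CYP1A1, a target of the aryl hydrocarbon receptor, checked the PCB 126 labels. It lay between 92.1 and 376.6 FPKM at 10 nM, between 85.2 and 388.6 at 1 µM, and between 0 and 7.69 in the control group. At 100 pM it lay between 1.09 and 319.3 FPKM, which overlaps the control group, and did not pass the test (adjusted p = 1 by limma). The log2 difference at 100 pM was 3.45 for CYP1A1 (unadjusted p = 0.000854 by limma) and 2.78 for CYP1A2 (unadjusted p = 0.00113 by limma). The study, which tested single transcripts rather than gene sums, reports some CYP1A1 isoforms as raised from its lowest concentration. CYP1A2 rose with CYP1A1 at 1 µM, by 6.16 on the log2 scale (adjusted p = 2.29e-05 by limma).

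CALR (calreticulin), a calcium-binding chaperone of glycoproteins, was the most abundant of the 10, with a median of 391.8 FPKM over the 40 libraries (150.9 to 496.4). HSP90B1 (GRP94), the HSP90 of the ER, had a median of 208.5 FPKM (94.5 to 250.8). PDIA4, a protein disulfide isomerase, had 157.3 FPKM (68.9 to 196.0) and HSPA5 had 130.4 (56.6 to 152.8). XBP1 stood at 109.8 FPKM (47.1 to 158.9). HERPUD1, a membrane protein of the degradation complex, had 34.1 FPKM (7.38 to 47.9). The 4 remaining genes were lower. DNAJB9 and SDF2L1, which assist HSPA5, had medians of 14.3 FPKM (5.44 to 19.8) and 10.4 FPKM (3.94 to 18.4). EDEM1, which directs misfolded glycoproteins to degradation, had 13.6 FPKM (6.11 to 17.3), and the sensor ERN1 had 6.01 (2.54 to 8.77). No library listed any of the 10 at 0. The coefficient of variation within a group was lowest at glyphosate 1 mg/L for 9 of the 10 genes, from 7.92% (HSP90B1) upward, and reached 48.8% for SDF2L1 with Roundup.

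**Figure D1:**
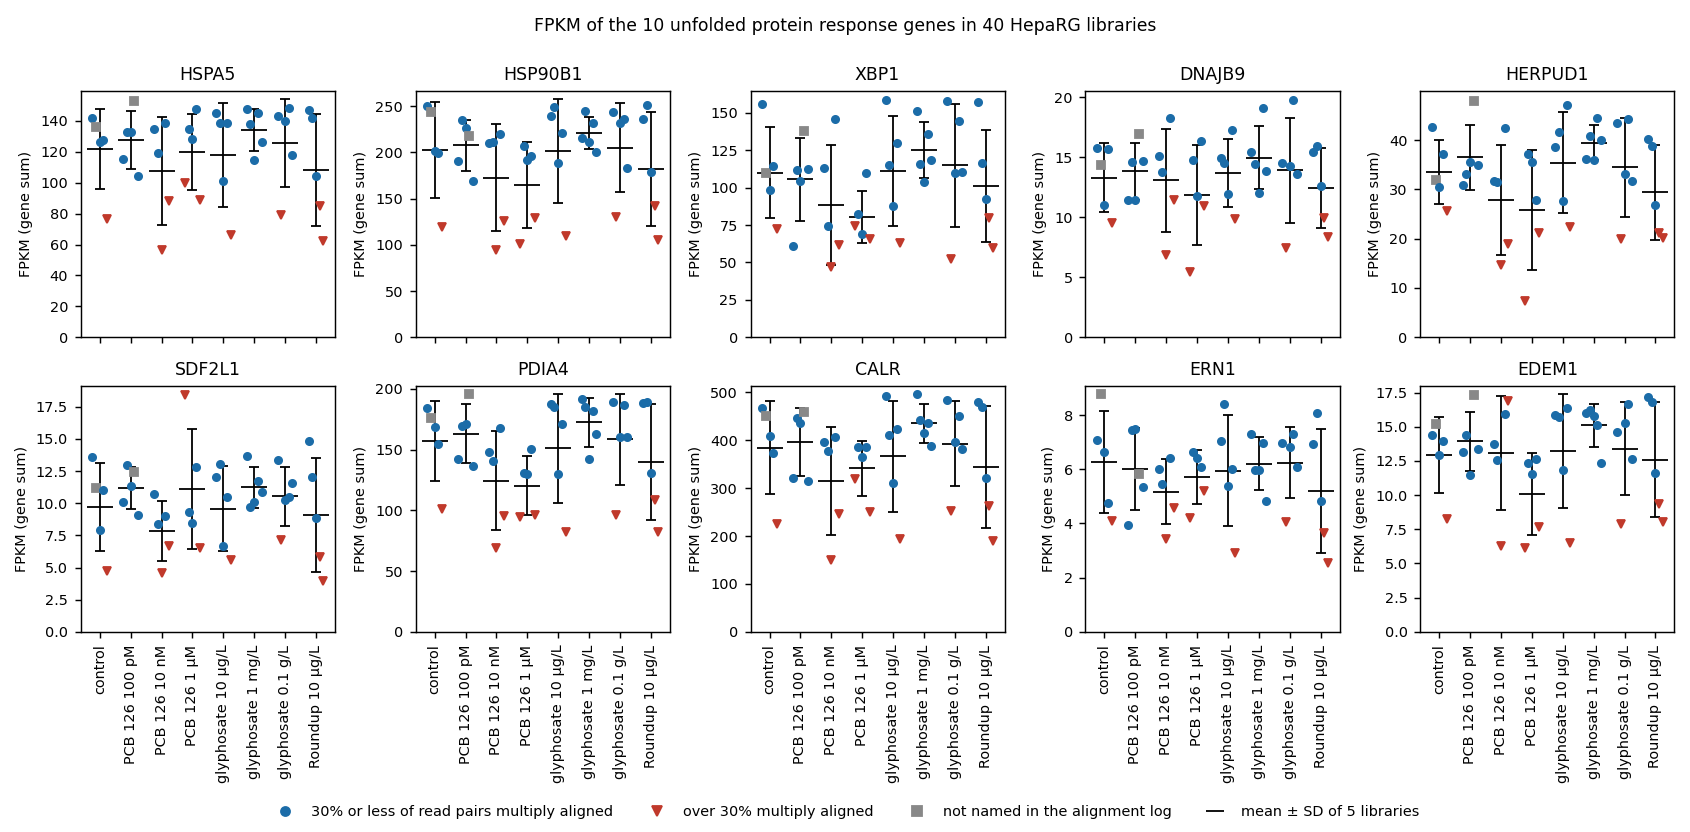
FPKM (gene sum, y axis from 0) of each of the 10 genes in the 8 groups; points are libraries, with replicates 1 to 5 from left to right, and bars are the mean ± SD of 5. Red triangles are the 9 libraries above 30% multiply aligned pairs, which form the lower end of most groups, and the groups overlap for every gene.

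None of the 10 genes passed the threshold at any concentration of PCB 126. A single limma fit of log2(FPKM + 1) took in the 20 control and PCB 126 libraries, with Benjamini-Hochberg adjustment over 9755 genes. A fold change on this scale understates the change of low genes. At 1 µM, 0 of the 10 genes had an adjusted p under 0.05, and 0 an unadjusted p under 0.05, against 1.87% of all genes tested by the first rule and 13.6% by the second. At 10 nM the counts were again 0 and 0, against 0.205% and 4.85%, and at 100 pM 0 and 0, against 0% and 1.19%. For none of the 10 genes did the treated and the control values fail to overlap, against 0.164%, 0.513% and 2.35% of all genes at 100 pM, 10 nM and 1 µM. Over the 3 dose steps 0 of the 10 passed, against 3.7% of genes, and across the 4 groups 0, against 1.39%. Without the libraries above 30% multiply aligned pairs, which leaves 15 of 20, the count stayed at 0 in all 5 comparisons, while 526 genes rather than 182 passed at 1 µM.

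The sensor ERN1 was at 7.09, 8.77, 6.63, 4.77 and 4.10 FPKM in the control libraries and at 4.21, 6.65, 6.41, 6.10 and 5.19 at 1 µM. The control values enclosed all of those at 1 µM. The fold change was 0.939 (95% interval 0.668 to 1.32, adjusted p = 0.869 by limma). For XBP1, the substrate of ERN1, the control libraries had 156, 109, 98.6, 115 and 72.0 FPKM and those at 1 µM had 74.5, 82.3, 69.2, 110 and 65.9. All but 1 of the 1 µM values lay under the second lowest control value, yet the fold change of 0.742 had an interval of 0.487 to 1.13 (adjusted p = 0.520 by limma). At 10 nM XBP1 had 113, 74.3, 47.1, 146 and 61.5 FPKM, a range that enclosed most of the control values (fold change 0.764, 95% interval 0.501 to 1.16). At 100 pM it had 60.8, 112, 104, 138 and 112 FPKM (0.955, 0.627 to 1.46). ERN1 had 3.95, 7.45, 7.50, 5.82 and 5.34 FPKM at 100 pM and 6.02, 5.45, 3.42, 6.42 and 4.58 at 10 nM, all below the highest control value.

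HSPA5, the most used marker of ER stress, was at 142, 136, 127, 127 and 76.8 FPKM in the control libraries. It was at 99.6, 135, 128, 148 and 88.5 at 1 µM, within about the same range. The fold change at 1 µM was 0.988 (95% interval 0.682 to 1.43), so a rise of more than 1.43-fold lay outside the interval on the log2(FPKM + 1) scale. The median gene changed by -0.26 (log2) at 1 µM without scaling, against -0.02 ± 0.26 (SE) for HSPA5. With the libraries scaled to a common 75th percentile, HSPA5 was 0.15 ± 0.12 (SE, log2) above the control group (adjusted p = 0.509 by limma), and with quantile normalization 0.20 ± 0.07 (adjusted p = 0.0856 by limma). The sign of the HSPA5 difference thus depended on the scaling, and neither scaling brought it past the threshold. At 100 pM HSPA5 had 115, 133, 132, 153 and 105 FPKM and at 10 nM 135, 119, 56.6, 139 and 88.5. The 2 lowest of these, 56.6 and 88.5, belong to libraries above 30% multiply aligned pairs.

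The other abundant chaperones gave lower means at 1 µM with wide intervals. HSP90B1 was at 101, 207, 191, 196 and 129 FPKM at 1 µM against 250, 244, 202, 199 and 120 in the control group (fold change 0.809, 95% interval 0.542 to 1.21). CALR was at 320, 386, 366, 385 and 250 FPKM against 466, 450, 409, 374 and 225 (fold change 0.904, 95% interval 0.608 to 1.34). Values of the 2 groups interleaved for both genes.

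PDIA4 had the smallest p of the 10 genes over the PCB 126 dose steps. It was at 184, 176, 168, 155 and 101 FPKM in the control libraries, 142, 169, 171, 196 and 136 at 100 pM, 148, 141, 68.9, 168 and 95.4 at 10 nM, and 94.5, 131, 130, 151 and 95.8 at 1 µM. Every 1 µM value lay under the second lowest control value. The slope was -0.16 ± 0.08 log2 per dose step (SE, unadjusted p = 0.0650, adjusted p = 0.300 by limma). It was -0.10 ± 0.04 with 75th-percentile scaling (adjusted p = 0.103 by limma) and -0.10 ± 0.04 without the 5 libraries above 30% (adjusted p = 0.207 by limma). Array weights, which let each library count by its estimated precision, gave -0.13 per dose step with an adjusted p of 0.0496 by limma, while 1289 genes passed instead of 361. At 1 µM against the control group, a 2-sided exact permutation test gave PDIA4 p = 0.103 without scaling and p = 0.0159 with 75th-percentile scaling. The direction was kept in all of these settings, and the threshold over all genes was passed under array weights alone.

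The 2 small partners of HSPA5 differed in where their extremes lay. DNAJB9 was at 15.8, 14.4, 11.02, 15.7 and 9.48 FPKM in the control group and at 5.44, 14.8, 11.8, 16.3 and 10.9 at 1 µM (fold change 0.868, 95% interval 0.584 to 1.29). SDF2L1 was at 13.6, 11.2, 7.89, 11.01 and 4.75 FPKM in the control group and at 18.4, 9.30, 8.49, 12.8 and 6.49 at 1 µM (fold change 1.12, 95% interval 0.748 to 1.69). Replicate 1 of the 1 µM group held the lowest DNAJB9 and the highest SDF2L1 value of the 40 libraries.

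The same library weighed most on HERPUD1. HERPUD1 was at 42.7, 32.0, 30.4, 37.2 and 25.6 FPKM in the control group and at 7.38, 37.2, 35.5, 28.0 and 21.2 at 1 µM. At 10 nM it was at 31.7, 31.5, 14.7, 42.4 and 18.8, and at 100 pM at 30.9, 33.1, 35.6, 47.9 and 35.0. The value of 7.38 stands below all others of the gene. The difference at 1 µM was -0.52 ± 0.34 log2 (SE, adjusted p = 0.499 by limma), the smallest adjusted p of the 10 genes at this concentration, and -0.15 without 1 µM replicate 1. That of SDF2L1 went from 0.17 to -0.02 without it. EDEM1, which works in the same degradation pathway as HERPUD1, was at 14.4, 15.2, 12.9, 13.9 and 8.23 FPKM in the control group and at 6.11, 12.4, 11.6, 12.7 and 7.68 at 1 µM (fold change 0.784, 95% interval 0.536 to 1.15). Its value of 6.11 in replicate 1 was again the lowest of 40.

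In the plot of scaled deviations, 1 µM replicate 1 shows HERPUD1 at -1.60, DNAJB9 at -0.69 and EDEM1 at -0.52 but SDF2L1 at 1.36 (log2, relative to each gene's median of 40 libraries). Over all genes, values in that library also differed by transcript length. The 12416 genes were put into 4 equal classes by the length of their main transcript. In that library the class of the shortest (up to 1406 bases) stood 0.33 log2 higher, relative to the other libraries of the group, than the class of the longest (from 4224 bases), the largest such gap of the 40 libraries, the next being 0.14. The main transcript of SDF2L1 has 865 bases, and those of HERPUD1, DNAJB9 and EDEM1 have 1862, 2715 and 6146. The other genes stood in no order of length in that library. XBP1 (1850 bases) was at 0.11, CALR (1903) at 0.29 and HSP90B1 (2858) at -0.48. PDIA4 (2903) was at -0.15, HSPA5 (3908) at 0.22 and ERN1 (7876) at 0.01. The part of transcript length in these values was not tested.

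**Figure D2:**
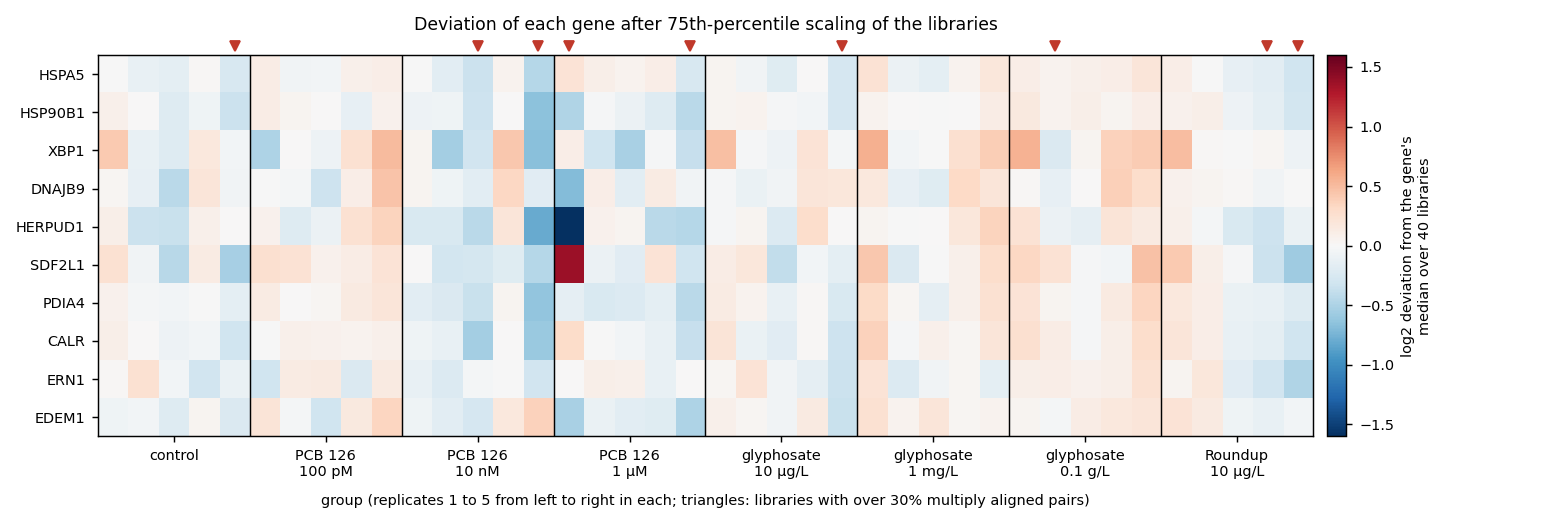
Colour gives the log2 deviation of each gene (rows) from its median over 40 libraries after 75th-percentile scaling, with libraries in columns by group; triangles mark the libraries above 30% multiply aligned pairs. PCB 126 1 µM replicate 1 holds both extremes, SDF2L1 at 1.36 and HERPUD1 at -1.60.

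The median difference of the 10 genes lay close to that of all genes tested, while single genes differed. At 1 µM their median difference was -0.25 (log2) beside -0.26 for all genes tested, with 1 gene above and 9 below 0. At 10 nM it was -0.25 beside -0.21, with 0 above and 10 below 0, and at 100 pM 0.07 beside 0.07, with 8 above. No share over all genes is given for these signs. Single genes at 1 µM ranged from -0.52 (HERPUD1) to 0.17 (SDF2L1). After the 9 libraries were left out, the medians were -0.12 beside -0.13 at 1 µM, -0.08 beside -0.05 at 10 nM and -0.07 beside -0.08 at 100 pM. Sums of cell markers also had lower means at 1 µM and 10 nM. They are unscaled and take in the libraries above 30%, which are 2 of 5 in each of these groups and 1 of 5 in the control group. The 8 hepatocyte markers summed to between 5593 and 14212 FPKM at 1 µM and between 14213 and 20895 in the control group. The 6 biliary markers summed to between 121.6 and 215.2 FPKM against 224.2 to 451.9, and the 6 mesenchymal markers to between 2.61 and 7.87 against 9.56 to 22.4. Of these, TTR (log2 difference -1.62, adjusted p = 0.00797), FGB (-1.37, adjusted p = 0.0259) and COL3A1 (-3.07, adjusted p = 2.29e-05) passed the limma test at 1 µM. At 10 nM the hepatocyte markers had a mean sum of 14536 FPKM (18647 in the control group). The biliary markers had 211.5 (360.6) and the mesenchymal markers 7.07 (17.3). In the same order, the 10 nM sums ranged from 8387 to 22011, 127.7 to 301.4 and 2.73 to 13.3 FPKM. Each of these ranges overlapped that of the control group. COL3A1 passed at 10 nM (-1.87, adjusted p = 0.0232 by limma). The biliary and mesenchymal sums rest mostly on KRT19 and COL3A1. Over the 40 libraries KRT19 had a median of 281.8 FPKM, with SPP1 next at 46.1, and COL3A1 had 12.1, with COL1A1 next at 2.17. In each of these 2 lists 3 of the 6 genes were tested at 1 µM. ALB, KRT19 and COL3A1 were above 0 in all 40 libraries, while EPCAM was listed at 0 in 33 and COL1A2 in 29. In such bulk samples fewer cells of a type and less RNA per cell cannot be told apart, and the part of these markers in the values of the 10 genes was not tested.

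**Figure D3:**
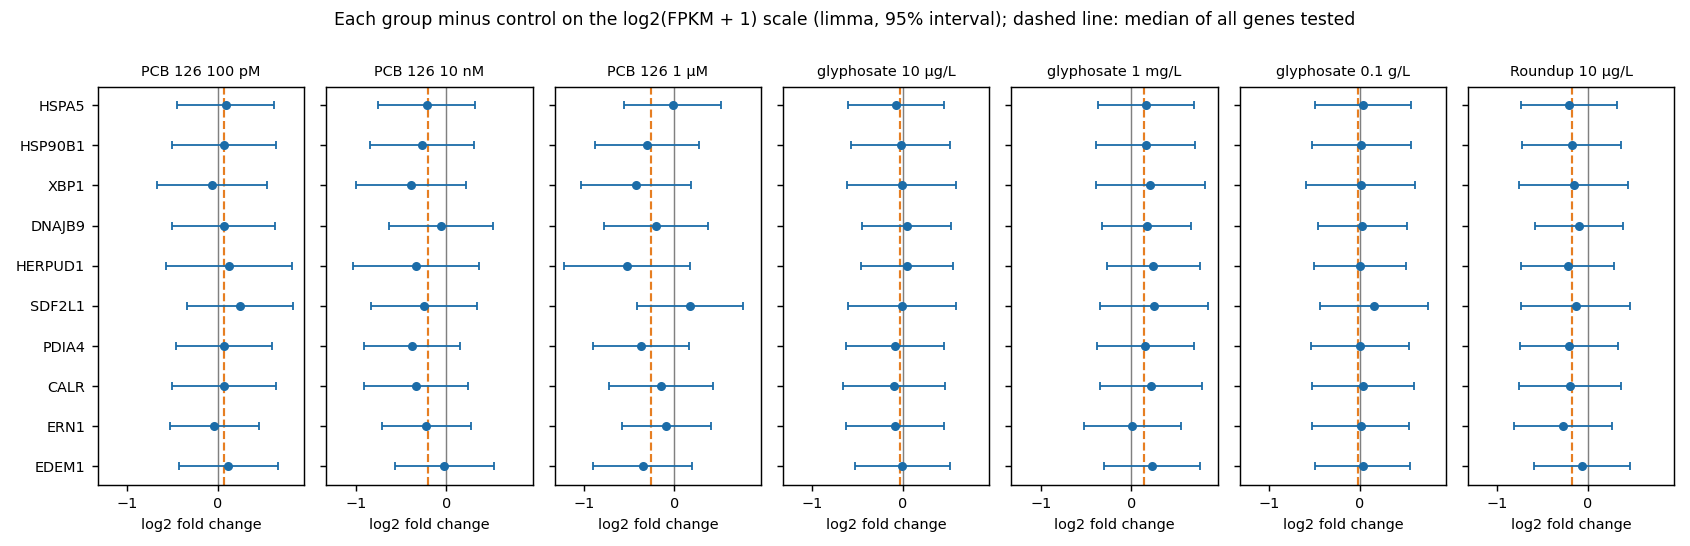
Log2 fold change against the control group (x axis, log2(FPKM + 1) scale, point and 95% interval from limma) for the 10 genes in each of the 7 treated groups; the dashed line is the median of all genes tested. Every interval crosses 0, and most points lie near the dashed line, which is at -0.26 for PCB 126 1 µM.

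None of the 10 genes passed the threshold with glyphosate or Roundup either. In the fit of the 25 libraries of that table (limma, 9533 genes), 0 of the 10 passed at glyphosate 10 µg/L, 1 mg/L, 0.1 g/L and Roundup 10 µg/L, against 0% of all genes in each. An unadjusted p under 0.05 was also found for 0 of the 10, against 0.997%, 1.31%, 0.881% and 1.73% of genes in the same order. Treated and control values overlapped for each of the 10, against 0.0524%, 0.178%, 0.0839% and 0.042% of genes without overlap. Across the 5 groups, over the glyphosate dose steps, and between Roundup and glyphosate at the shared label of 10 µg/L, the count was 0 as well, against 0% of genes. The unadjusted counts were 0 of 10 against 1.36%, 1.02% and 1.27%. With 75th-percentile scaling, an unadjusted p under 0.05 was found for 5 of the 10 over the glyphosate dose steps and 3 of the 10 at 0.1 g/L. With a replicate block added, it was found for 8 and 7 (smallest adjusted p = 0.194 and 0.299 by limma). The share of all genes is not given for these settings, so the counts cannot be called particular to the 10. With the scaling alone, their median was 0.07 (log2) per dose step beside 0.05 for all genes, and 0.19 beside 0.14 at 0.1 g/L. Between Roundup and glyphosate 0 of the 10 had values without overlap, against 0.105% of genes. Leaving out the 5 libraries of this table above 30% kept every count at 0.

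HSPA5 was at 145, 139, 101, 139 and 66.0 FPKM at glyphosate 10 µg/L, 147, 138, 115, 145 and 126 at 1 mg/L, 143, 78.8, 140, 148 and 118 at 0.1 g/L, and 147, 142, 105, 84.9 and 62.4 with Roundup. Each group overlapped the control values, and the lowest value of each except 1 mg/L belongs to a library above 30%. The fold changes against the control group were 0.951 (95% interval 0.657 to 1.38), 1.12 (0.775 to 1.62), 1.03 (0.711 to 1.49) and 0.866 (0.599 to 1.25). The difference between Roundup and glyphosate at 10 µg/L was 0.911-fold for HSPA5 (95% interval 0.630 to 1.32) and, of the 10 genes, farthest from 1 for HERPUD1, at 0.830-fold (0.581 to 1.18, adjusted p = 0.974 by limma). HERPUD1 had 38.6, 41.7, 27.6, 47.1 and 22.3 FPKM at glyphosate 10 µg/L and 40.3, 38.8, 26.8, 21.1 and 20.1 with Roundup.

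The other genes showed the same overlap. ERN1 had 7.04, 8.41, 5.36, 6.00 and 2.92 FPKM at glyphosate 10 µg/L, 7.29, 5.99, 5.96, 6.97 and 4.81 at 1 mg/L, 6.98, 4.05, 6.82, 7.28 and 6.08 at 0.1 g/L, and 6.91, 8.09, 4.81, 3.64 and 2.54 with Roundup. Its Roundup mean lay farthest below the control group of the 10 genes (fold change 0.827, 95% interval 0.570 to 1.201, adjusted p = 0.902 by limma). SDF2L1 had the highest fold change at 1 mg/L, 1.19 (95% interval 0.789 to 1.81), with 13.7, 9.71, 10.1, 11.7 and 10.9 FPKM. HERPUD1 at 1 mg/L was at 36.1, 40.9, 36.0, 44.5 and 39.96 FPKM, the narrowest group of that gene (fold change 1.18, 95% interval 0.830 to 1.69), and 4 of its 5 values lay within the control range. EDEM1 was at 16.0, 16.3, 15.8, 15.2 and 12.4 FPKM at 1 mg/L (fold change 1.17, 95% interval 0.814 to 1.69), with 3 values above the highest control value of 15.2.

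All 10 genes had a mean above the control group at 1 mg/L and at 0.1 g/L on the log2 scale, and all 10 a mean below it with Roundup. Beside the median of all genes, theirs was 0.19 beside 0.14 at 1 mg/L and -0.19 beside -0.18 with Roundup. At 0.1 g/L the signs differed, with 0.03 beside -0.01. Without the libraries above 30% the medians were 0.04 beside -0.01 at 1 mg/L, 0.05 beside -0.03 at 0.1 g/L and -0.02 beside -0.03 with Roundup. With 75th-percentile scaling as well they were 0.14 beside 0.08, 0.20 beside 0.10 and 0.07 beside 0.06. Of the groups with no library above 30%, glyphosate 1 mg/L had the highest mean for 9 of the 10 genes and PCB 126 100 pM for 0. The 2 PCB 126 groups with 2 such libraries had the lowest mean for all 10 (4 at 10 nM and 6 at 1 µM). Without the 9 libraries, 1 mg/L was highest for 2 of the 10, while 1 µM was lowest for 6. Roundup, which also has 2 such libraries, had the lowest mean for 0 of the 10. When the 8 group means of a gene were put in order, the highest exceeded the lowest by between 1.21-fold (ERN1) and 1.56-fold (XBP1, 125.0 against 80.3 FPKM). In 2-sided exact permutation tests, the highest and the lowest group differed with p under 0.05 for 7 of the 10 genes (HSP90B1, XBP1, HERPUD1, SDF2L1, PDIA4, CALR and EDEM1), with p = 0.0159 for HSP90B1, XBP1 and PDIA4. These pairs were picked as the extremes of 8 groups and the p values are not corrected for that. No share over all genes is given for this count, for the signs of the means against the control group, or for the counts of highest and lowest means. They cannot be called particular to the 10. Neighbours in the order, which are close by construction, had exact p values from 0.317 upward in all 70 pairs.

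With 75th-percentile scaling, exact permutation tests of single genes gave other values at 0.1 g/L. HSPA5 reached p = 0.00794, the smallest that 5 against 5 libraries allow, and HSP90B1, PDIA4, CALR and EDEM1 lay at p = 0.0238 to 0.0397, whereas without scaling the 5 genes lay at p = 0.754 to 0.952. These p values are not corrected for the 80 tests of this kind, and no share over all genes is given beside them. The scaled difference of HSPA5 was 0.22 ± 0.09 (SE, log2), and its adjusted p over all genes was 0.492 by limma.

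1 setting of the herbicide fit called members. With array weights, 8 of the 10 genes passed across the groups and 6 of the 10 for Roundup against the control group. That fit also called 5527 and 3470 of the 9533 genes, gave Roundup replicate 3 a weight of 30.4 while no other library exceeded 2.41, and stopped before it converged.

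XBP1 values lay close together within some runs. The library numbers form 5 runs, each with 1 library of every group. In the first run the control, the 3 glyphosate libraries and the Roundup library had XBP1 between 151.2 and 158.9 FPKM. In the second they had 109.5 to 116.6 FPKM apart from 1 library above 30% at 52.1. The 3 PCB 126 libraries of the first run had 60.8 to 113.1 FPKM. HSPA5 was also close within these runs but showed no such step. It was at 142.1 to 147.4 FPKM in the first run and 135.9 to 142.0 in the second, again apart from the library above 30%, which had 78.8. In the same libraries of the first run PDIA4 had 184.2 to 191.5 FPKM and ERN1 6.91 to 7.29. HSP90B1 and HERPUD1 were wider there, at 215.8 to 250.1 and 36.1 to 43.4 FPKM.

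The XBP1 form without the 26-base piece shown above was listed in 10 of the 40 libraries and at 0 in the other 30. It is set here against ENST00000216037 alone, and other listed transcripts that retain the piece are not counted. The 2 forms together made up 42.7% to 98.6% of the gene's FPKM. In 7 of the 10 libraries the excised form was below ENST00000216037, at up to 18.5 FPKM and up to 15.7% of their sum. In 3 libraries it exceeded ENST00000216037. It was at 51.6 FPKM against 8.89 in PCB 126 10 nM replicate 2 and at 84.3 against 24.6 in 10 nM replicate 4. In 1 µM replicate 1 it was at 35.7 against 15.4, with the whole gene at 74.5 FPKM. In the remaining libraries ENST00000216037 lay between 25.05 and 146.0 FPKM. All 3 libraries belonged to the higher PCB 126 groups, but the other 3 libraries of the 10 nM group listed the excised form at 0, and it was at 0 in all 5 libraries of glyphosate 10 µg/L and of Roundup.

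The excised form did not pass the threshold at 10 nM (log2 difference 1.01 ± 1.39 SE, adjusted p = 0.955 by limma over 21181 transcripts). Transcript ENST00000216037, which retains the piece, was lower at 10 nM by -1.58 ± 0.53 (SE, log2, unadjusted p = 0.00690, adjusted p = 0.734 by limma). For the 10 genes, 0 of the 24 tested transcripts passed at 10 nM, against 0.0614% of all transcripts. The count was also 0 at 100 pM (0.00472% of transcripts), at 1 µM (0.552%), over the dose steps (0.906%) and across the groups (0.364%). With the herbicides 0 of 22 passed, against 0.00485% over the glyphosate dose steps and 0% elsewhere. The forms, listed at 1850 bases with and 1131 bases without the piece, overlap, and a listed 0 can be a failed estimate, so it is given here only as listed. In 10 nM replicate 2 an unnamed assembled transcript at the locus held another 30.3 FPKM, so that the gene name covered 71.0% of the locus. The other genes had no shared rank in these libraries. HSPA5 ranked 16, 27 and 9 from the lowest of 40 in the 3 libraries, and HERPUD1 15, 34 and 1.

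**Figure D4:**
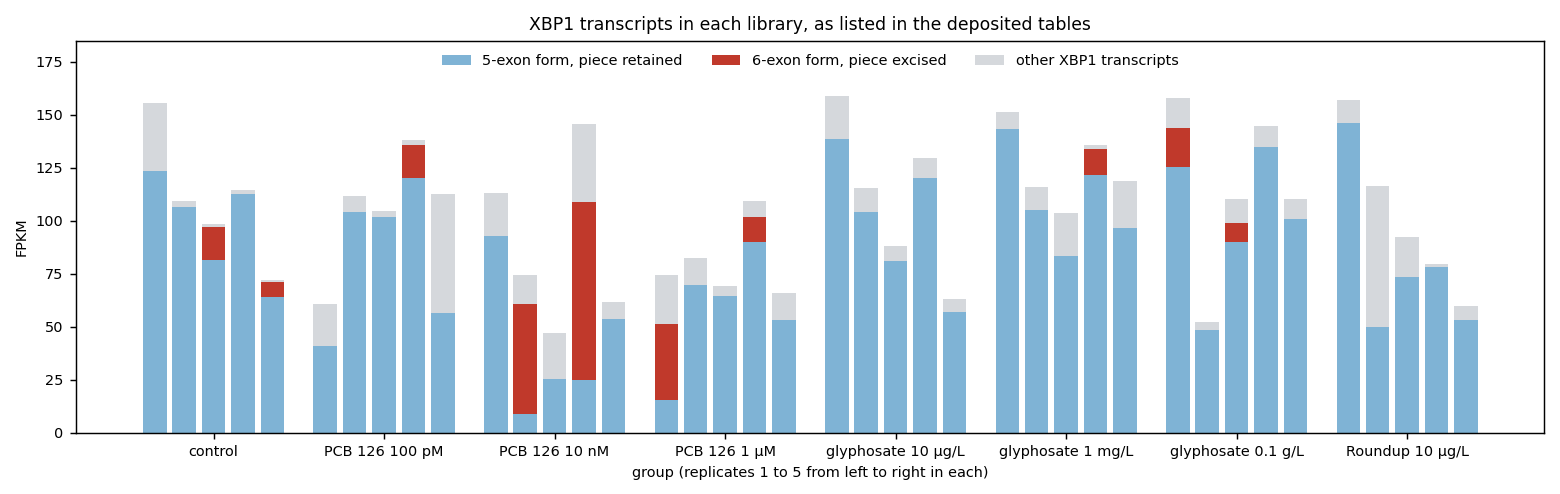
Stacked bars give the FPKM (y axis) of XBP1 transcripts in each of the 40 libraries, with replicates 1 to 5 from left to right in each group: the 5-exon form that retains the piece, the 6-exon form without it, and other transcripts of the gene name. The excised form exceeds ENST00000216037, the 5-exon form drawn, in 3 libraries, at 51.6, 84.3 and 35.7 FPKM, and is listed at 0 in 30. The other transcripts include further ones that retain the piece.

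Pairs of the 10 genes ranged from opposed to close. Over the within-group deviations of the 40 libraries after 75th-percentile scaling, the 45 pairs had a median Pearson r of 0.38 (-0.30 to 0.92), beside a median of 0.23 for pairs of all genes. HSPA5, PDIA4 and CALR went together most, with r = 0.92 for HSPA5 and PDIA4 and 0.87 for HSPA5 and CALR. The chaperone HSP90B1 was less close to them, at r = 0.69 with PDIA4, 0.66 with HSPA5 and 0.63 with CALR. DNAJB9 and HERPUD1 had r = 0.74, and HERPUD1 and SDF2L1 were the least alike, at r = -0.30. Both values take in 1 µM replicate 1. Without that library r was 0.63 for DNAJB9 and HERPUD1 and turned to 0.33 for HERPUD1 and SDF2L1, and the median of the 45 pairs was 0.52 (-0.01 to 0.92 over 39 libraries). Without scaling, the median of the 45 pairs was 0.83, beside 0.62 for all genes. The libraries share their depth and composition, so these values are descriptions.

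**Figure D5:**
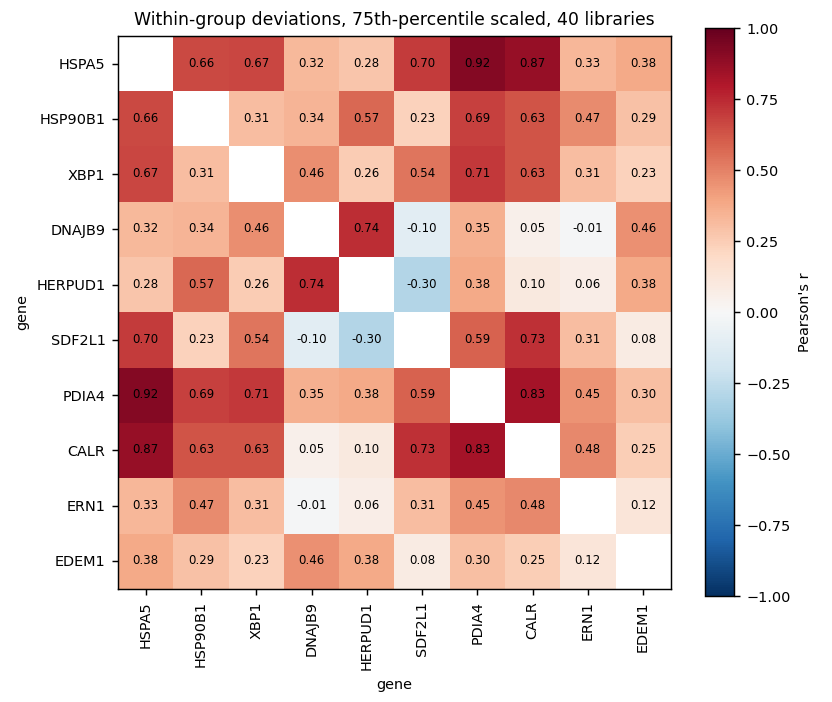
Pearson's r between the within-group deviations of each pair of the 10 genes over 40 libraries, after 75th-percentile scaling (colour from -1 to 1, value in each cell). HSPA5, PDIA4 and CALR form the closest group, with 0.92 for HSPA5 and PDIA4, and HERPUD1 with SDF2L1 gives the lowest value, -0.30, which is 0.33 without PCB 126 1 µM replicate 1.

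Of 9260 genes that passed the filter in both tables, those outside the 10 whose scaled deviations most resembled the mean of the 10 included TMBIM6 (r = 0.92), GHITM (0.92), PDIA6 (0.91), ATP5B (0.90), CHMP1B (0.90), PSMC2 (0.90) and PDIA3 (0.89). PDIA3 and PDIA6 are further disulfide isomerases of the ER, TMBIM6 is an ER membrane protein, and ATP5B is a subunit of the mitochondrial ATP synthase. These values too rest on 40 libraries that share their depth.

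The wider pathway gave the same counts. At 1 µM PCB 126, 0 of 19 tested ER chaperones and folding enzymes, 0 of 16 genes of ER-associated degradation, 0 of 10 ER stress sensors and their processing factors, 0 of 10 genes of the PERK and ATF4 arm, 0 of 19 genes of ER translocation and retrieval, and 0 of 12 cytosolic and mitochondrial heat shock proteins passed the threshold in either direction, against 1.87% of all genes. Their median differences lay between -0.34 (translocation and retrieval) and -0.06 (PERK and ATF4 arm), beside -0.26 for all genes. No gene of these 6 lists passed in any of the other comparisons. An unadjusted p under 0.05 at 1 µM was found for 2 of 10 genes of the PERK and ATF4 arm, 2 of 12 heat shock proteins, 1 of 19 genes of translocation and retrieval and 0 in the other 3 lists, against 13.6% of all genes.

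The PERK arm, which acts through translation and ATF4, is illustrated by 3 of its genes, chosen after their values were seen. DDIT3 (CHOP), a transcription factor linked to cell death under lasting ER stress, lay between 1.43 and 7.79 FPKM in the control group (median 4.49), between 4.60 and 9.45 at 1 µM PCB 126 (median 7.16) and between 4.56 and 10.7 at glyphosate 0.1 g/L (median 6.08). ATF4 had medians of 39.5, 35.4 and 42.6 FPKM and TRIB3, a target of ATF4, 8.01, 6.59 and 7.00 in the same groups. The ranges overlapped for all 3 genes. DDIT3 medians did not rise steadily with dose. They were 6.90 FPKM at PCB 126 100 pM and 5.61 at 10 nM. At glyphosate 10 µg/L the DDIT3 median was 4.61 FPKM, and at 1 mg/L it was 8.54, above that at 0.1 g/L.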

How the data were processed

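Read pairs from directional, rRNA-depleted libraries were aligned by the authors (HISAT2, GRCh38) and assembled on Ensembl release 89 (StringTie). They deposited FPKM for 234960 transcripts per library. Tool versions are not given in the sources used here. Deposited FPKM columns with values below 0, which FPKM cannot take, were recorded as a score until their 4 (PCB 126 table) and 6 (herbicide table) such values had been set to 0, and were then used as FPKM. The tables hold no read counts, so no counting intervals were possible, and 5 libraries per group limit the precision.

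FPKM were summed per gene name, and genes with a variance of FPKM above 1 in a table were tested on log2(FPKM + 1) with limma 3.58.1 in R 4.3.3, Benjamini-Hochberg threshold 0.05, all groups of a table in 1 fit. Fold changes on this scale understate changes of low genes. Single genes were also compared by exact permutation over all splits. The fit was tested on simulated data. Replicates were named by the run of library numbers in the titles.

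The named genes were the 10 members, genes of the other lists with an adjusted p under 0.05 (at most 6 per direction), the 8 genes most alike (1 of them is not reported here), CYP1A1 and CYP1A2, and the markers. Members, lists and the 30% limit were chosen with earlier results of these data known. Alternatives were a pseudocount of 0.1, other filters, scaling by the 75th percentile or quantiles, ordinary linear models, array weights, sums per assembled locus, other sets of groups, a replicate block, and leaving out libraries. Coordinates of XBP1 forms and promoters came from GENCODE and RefSeq tables on GRCh38.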

Additional observations from a re-analysis of the deposited data

Results flagged for a closer look

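Each of the 10 genes was checked in each of the 8 groups for a library far from the other 4. Of these 80 groups of values, 3 held a library whose gap to its nearest neighbour exceeded 0.71 of the whole range, where chance flags about 1 in 20, or 4 of 80. HSPA5 in control replicate 5 was at 76.8 FPKM, below 126.6 to 142.1 in the other 4, and this library is 1 of the 9 above 30% multiply aligned pairs. HERPUD1 in PCB 126 100 pM replicate 4 was at 47.9 FPKM, above 30.9 to 35.6 in the others. This library is not named in the alignment log and held the highest value of the 40 for 4 of the genes (HSPA5, HERPUD1, PDIA4 and EDEM1). EDEM1 in glyphosate 1 mg/L replicate 5 was at 12.4 FPKM, below 15.2 to 16.3 in the others.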

How the results depend on the processing

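The count of 0 members of 10 past the threshold was kept under each alternative run except array weights, in all 12 comparisons or, for the fit of 2 groups only, in the 8 between pairs of groups. Array weights gave 1 member over the PCB 126 dose steps (smallest adjusted p = 0.0496 by limma), 8 across the herbicide groups, 6 for Roundup against control and 8 for Roundup against glyphosate, where 4448 of 9533 genes passed. Single-gene exact permutation tests under 0.05 numbered 0 of 80 without scaling and 9 of 80 with 75th-percentile scaling, with no share over all genes given. Leaving out each library in turn gave 0 to 0 members in each comparison. Gene counts moved more: at 1 µM PCB 126, 118 (without control replicate 4) to 365 (without control replicate 5), over the dose steps 210 (without control replicate 2) to 761 (without control replicate 5), across the PCB 126 groups 101 to 208, and at 10 nM 15 to 35. At 1 µM, 182 genes (63 higher, 119 lower) became 592 with 75th-percentile scaling (247 and 345), 1085 with quantile normalization (532 and 553), 830 with a library-size term (454 and 376) and 526 without the 9 libraries (206 and 320); the cause was not tested.

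A replicate block kept 0 members in all 12 comparisons, with 357 genes at 1 µM, and changed no call of a member. The numbers were not taken as pairing, since only 7 of 30 same-number correlations in the PCB 126 table and 19 of 50 in the herbicide table exceeded 0.1. Such a cut cannot show the runs to be unpaired. The fits without a block have no term for the run, so anything the runs share is part of their spread. The data hint at a shared component, since 14 of 20 and 18 of 25 libraries correlated best with their own number, and same-number medians were 0.063 and 0.069 against -0.018 and -0.019 for other pairs. The replicate block with 75th-percentile scaling, added after seeing the data, gave a smallest adjusted p of 0.0673 by limma, for the PCB 126 slope of PDIA4. Also added after seeing the data, leaving out PCB 126 1 µM replicate 1 turned the correlation of HERPUD1 and SDF2L1 from -0.30 to 0.33.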
